A study of Mus musculus with 34 samples.

Results

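The genes described here encode the enzymes that write, copy and remove cytosine methylation in mouse DNA. They are the methyltransferases Dnmt1, Dnmt3a and Dnmt3b, the cofactor Dnmt3l, the maintenance factor Uhrf1, and the dioxygenases Tet1, Tet2 and Tet3. They were taken by symbol, as the named enzymes of the pathway, and the 8 genes were found in each of the 5 expression tables, out of 49069 identifiers used in any table. Poly-A RNA was sequenced in 34 libraries of a study that converted embryonic fibroblasts with chemicals to a state like extraembryonic endoderm (XEN), and from there to neuronal or hepatocyte-like cells. Values are FPKM, fragments scaled to transcript length and library size, so levels of different genes can be set side by side per length, and RNA abundance is all they measure. DNA methylation itself was not measured.

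Levels were compared only within a table, because the tables were deposited as separate normalizations. The XEN table held 16 libraries. Embryonic fibroblasts gave 2 of them and chemically induced XEN-like colonies 8, passages 5, 8 and 13 of a XEN-like line named F25 gave 3, passages 17 and 3 of the line s39 gave 2, and 1 was of embryonic XEN cells labelled as chemically derived (eXEN, passage 8). The hepatic table held 10, with embryonic fibroblasts, hepatocytes and hepatic tissue at 2 each and 4 libraries of XEN-derived hepatocyte-like cells. A first neuronal table held 1 library each of fibroblasts, colonies positive for the TauEGFP reporter, cells induced to a neuronal state by FICB, primary cortical neurons and brain. A further neuronal table held a second library of TauEGFP colonies, also labelled as made from passage 2 XEN-like cells, and a second of primary neurons, and the last table held 1 library labelled as XEN-derived neuronal cells of passage 24. Cells and tissues came from the strain Mapttm2(EGFP)Klt/J, which carries EGFP at the tau gene Mapt, except for the primary neurons, which were C57BL/6. Fibroblasts, fibroblast-derived cells and reference tissues thus shared the reporter allele. The libraries of F25 and of s39 are passages of a single line each, and no label gives an age of the animals or says which libraries share one.

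Methylation of CpG sites silences promoters, transposable elements and imprinted alleles. Dnmt1 copies the pattern onto the new strand after replication and is brought to hemimethylated sites by Uhrf1, Dnmt3a and Dnmt3b set new marks with Dnmt3l as a cofactor that has no catalytic activity of its own, and the Tet enzymes oxidize methylcytosine as a step toward its removal. The extraembryonic lineages of the mouse, to which XEN cells belong, are known for a less methylated genome than the embryo proper.

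Dnmt1 (ENSMUSG00000004099) lies at chr9:20907209-20959888 on the minus strand of mm10 and Uhrf1 (ENSMUSG00000001228) at chr17:56303321-56323486 on the plus strand. The de novo group comprises Dnmt3a (ENSMUSG00000020661, chr12:3806007-3914443, plus strand), Dnmt3b (ENSMUSG00000027478, chr2:153649450-153687730, plus strand) and Dnmt3l (ENSMUSG00000000730, chr10:78041947-78063622, plus strand). The dioxygenases are Tet1 (ENSMUSG00000047146, chr10:62804570-62908996, minus strand), Tet2 (ENSMUSG00000040943, chr3:133463679-133545139, minus strand) and Tet3 (ENSMUSG00000034832, chr6:83362373-83459084, minus strand). Exons of Dnmt3a overlap those of Dnmt3aos on the opposite strand, exons of Dnmt3l those of Aire, and exons of Tet2 those of Gm42567. The library kit is not stated to keep the strand, so reads of these pairs cannot be told apart, and isoforms of a gene were not resolved.

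Promoter windows are shown for the maintenance pair, Dnmt1 and Uhrf1, and for Dnmt3b and Dnmt3l, the de novo genes that were high on opposite sides between fibroblasts and XEN-like cells. Sequences are from RefSeq on GRCm38.p6, 250 bases before to 50 bases after a start, 5′ to 3′ on the strand of the gene, and the first listed window is shown where a gene had more than 1. In the windows of Dnmt1 (chr9:20952574-20952873, minus strand) and Uhrf1 (chr17:56304063-56304362, plus strand), capitals mark the E2F-type motif, searched as TTTGGCGC or TTTCGCGC on both strands. In those of Dnmt3b (chr2:153649199-153649498, plus strand) and Dnmt3l (chr10:78055085-78055384, plus strand), capitals mark CpG.
Dnmt1: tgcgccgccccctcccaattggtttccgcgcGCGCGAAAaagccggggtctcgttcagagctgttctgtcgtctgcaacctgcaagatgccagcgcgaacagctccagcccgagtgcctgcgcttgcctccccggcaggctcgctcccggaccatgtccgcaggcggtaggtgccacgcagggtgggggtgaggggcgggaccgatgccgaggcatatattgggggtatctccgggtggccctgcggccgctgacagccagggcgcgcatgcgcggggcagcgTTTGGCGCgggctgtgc
Uhrf1: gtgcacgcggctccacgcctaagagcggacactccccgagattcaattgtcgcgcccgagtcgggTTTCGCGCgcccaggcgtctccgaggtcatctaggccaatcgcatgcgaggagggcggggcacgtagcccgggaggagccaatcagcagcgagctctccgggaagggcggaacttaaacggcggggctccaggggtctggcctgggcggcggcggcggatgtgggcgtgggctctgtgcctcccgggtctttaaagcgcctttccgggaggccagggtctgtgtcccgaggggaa
Dnmt3b: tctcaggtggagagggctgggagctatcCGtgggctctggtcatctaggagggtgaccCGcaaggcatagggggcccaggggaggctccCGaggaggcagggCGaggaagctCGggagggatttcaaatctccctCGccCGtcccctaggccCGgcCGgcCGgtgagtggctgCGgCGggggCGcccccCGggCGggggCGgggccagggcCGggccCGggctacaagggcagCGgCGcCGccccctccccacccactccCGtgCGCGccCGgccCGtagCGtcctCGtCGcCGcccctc
Dnmt3l: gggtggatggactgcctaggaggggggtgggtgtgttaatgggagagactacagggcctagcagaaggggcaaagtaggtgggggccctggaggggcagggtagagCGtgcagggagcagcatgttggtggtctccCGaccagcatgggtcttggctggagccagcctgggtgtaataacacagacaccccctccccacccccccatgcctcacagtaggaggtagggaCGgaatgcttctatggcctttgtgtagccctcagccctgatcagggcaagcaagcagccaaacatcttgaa

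The Dnmt1 window held TTTGGCGC 34 bases downstream of the start and TTTCGCGC on the opposite strand 219 bases upstream, and the Uhrf1 window held TTTCGCGC 185 bases upstream. These distances are from the start of the window shown, the first of 3 listed for Dnmt1 and of 2 for Uhrf1. Other starts of a gene would give other distances. Of all 32851 windows in the table, 267 (0.813%) held either form on either strand, and by gene 251 of 27025 (0.929%) did. Among the 8 enzymes, Dnmt1 and Uhrf1 had it. Among 10 matched genes of DNA replication, 5 had it, and among 9 partners of the methylation machinery only Lig1 did. Such a match is a run of letters and was not shown to be a binding site.

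The Dnmt3b and Dnmt3l windows differed in CpG content. The Dnmt3b window held 30 CpG, a number reached by 11.7% of all windows, whereas the Dnmt3l window held 3, a number reached by 76.7%. The median window held 7.00. Dnmt1 and Uhrf1 had 33 each, Dnmt3a 47, Tet1 17, Tet2 57 and Tet3 22. Of these first-listed windows only that of Dnmt3l was below the median, while a further listed window of Dnmt1 held 2 CpG.

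Several libraries stood apart. Total fragments were not stated, and an estimate from the spacing of the lowest values gave 4000000 to 13000000 per library, which may be off by a factor of 2. Long transcripts (at least 5000 exon bases, as 6 of the 8 genes have) were lower than short ones (1000 to 2000) by a median log2 gap of -2.02 to -0.54. The gap was -1.52 in the first XEN-table fibroblast library and -0.72 in the other, and -1.79 in colony 8, the widest of the colonies. Hepatocytes 1 resembled hepatic tissue 2 (r = 0.981 over 15657 genes) and hepatocytes 2 resembled tissue 1 (r = 0.960) more than replicates of 1 label resembled each other (0.923 for the hepatocytes, 0.928 for the tissue). Primary neurons 2 held summed astrocyte and macrophage markers of 3289 and 2473 FPKM beside 77.2 for neuron markers, against 1060.0 for neuron markers in primary neurons 1. The passage 24 library labelled neuronal held hepatocyte markers summing to 6395 FPKM, with 8 of 8 at 1 FPKM or more, and neuron markers summing to 9.04. The labels are used below as given. In XEN-like colonies, 7 of 7 endoderm markers were higher and 7 of 7 fibroblast markers lower than in fibroblasts. In bulk RNA, fewer cells of a type and less RNA per cell cannot be told apart.

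The comparison of XEN-like colonies with fibroblasts asked which of these enzymes differed between the intermediate state and the cells it was made from. Uhrf1, Tet3 and Dnmt1 rose in the colonies, while Dnmt3a, Tet1 and Tet2 did not pass the test. Dnmt3b was near 0 in the fibroblasts and Dnmt3l near 0 in the colonies. Both entered the test only through the group in which they were high, as Tet1 did, so their calls are given as a description. A gene was called at a limma adjusted p under 0.05 (Benjamini-Hochberg over all 14012 genes tested) and a difference of 1 or more, up or down, on log2(FPKM + 1), a scale that understates the change of low genes. By that rule 34.6% of all genes were called, 17.8% higher and 16.8% lower, and of the 5 enzymes that reached 1 FPKM on both sides 3 were called, all higher. The colonies lay above both fibroblast libraries without overlap for 3 of the 8 enzymes, against 22.1% of all genes, and below them for Dnmt3l, against 15.9%. The 3 include Dnmt3b, and the filter fixed the direction of Dnmt3b and Dnmt3l, so these counts too are a description. The median log2 difference was 0.80 over the 8 enzymes and 0.16 over all genes.

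Uhrf1 showed the clearest difference of the maintenance pair. It was at 5.19 and 4.44 FPKM in the fibroblasts and at 38.1, 41.3 and 55.3 (lowest, median and highest) in the 8 colonies. The groups were far apart, and the colonies other than colony 8 lay within a narrow band. The means were 42.9 ± 5.59 (SD, n = 8) and 4.81 ± 0.527 (SD, n = 2), an 8.92-fold ratio. On the log2 scale the colonies were higher by 2.91 ± 0.21 (SE; 95% interval 2.47 to 3.35), with a limma adjusted p of 7.47e-08. The call held in every alternative run, with log2 differences from 2.72 to 3.12.

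Dnmt1, the maintenance methyltransferase, was at 9.55 and 14.7 FPKM in the fibroblasts and at 14.7, 26.5 and 56.2 (lowest, median and highest) in the colonies. The groups touched, since colony 8 had the level of the second fibroblast library, and colony 6 was far above the rest. The means were 28.4 ± 12.3 (SD, n = 8) and 12.1 ± 3.66 (SD, n = 2), with a log2 difference of 1.09 ± 0.37 (SE) and a limma adjusted p of 0.0265. This call was lost in several alternatives. Without fibroblast library 1 the log2 difference was 0.78 (limma adjusted p = 0.254), without fibroblast library 2 it was 1.43 (adjusted p = 0.0571), and within flow cell HJMKLALXX it was 0.78 (adjusted p = 0.394). Without colony 6 it was 0.96 and with median-ratio scaling 0.89, both under the fold required.

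The proportion of the 2 maintenance genes differed as well. Uhrf1 over Dnmt1 in FPKM was 0.543 and 0.301 in the fibroblasts and 0.798 to 3.77 in the colonies, with a median of 1.56. Colony 6 had the lowest ratio and colony 8 the highest, and no colony overlapped the fibroblasts.

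Dnmt3b, a de novo methyltransferase, was at 0.177 and 0.243 FPKM in the fibroblasts and at 2.54, 4.21 and 19.5 (lowest, median and highest) in the colonies. All colonies lay above the fibroblasts, with colonies 6 and 3 the highest. The means were 6.77 ± 5.89 (SD, n = 8) and 0.210 ± 0.0467 (SD, n = 2), a 32.2-fold ratio, with a log2 difference of 2.43 ± 0.60 (SE). Dnmt3b reached the filter of 1 FPKM in 2 libraries only through XEN-like libraries, and with no filter the difference was 2.43 with a limma adjusted p of 0.0100. Within flow cell HJMKLALXX the difference was 2.31 and was not called, and without fibroblast library 1 it was 2.31 and was not called either.

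Dnmt3a, the other de novo enzyme, was at 6.53 and 9.65 FPKM in the fibroblasts and at 4.36, 12.5 and 17.5 (lowest, median and highest) in the colonies. The ranges overlapped, with colony 8 below both fibroblast libraries. The log2 difference was 0.51 (95% interval -0.27 to 1.29; limma adjusted p = 0.275). Within the HVN flow cells alone, with fibroblast library 1 and colonies 1 to 3, it was 1.16 (adjusted p = 0.0209), and within HJMKLALXX it was -0.08.

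Dnmt3b made up more of the de novo pair in the colonies. Its share of the summed FPKM of Dnmt3a and Dnmt3b was 2.63% and 2.45% in the fibroblasts and 17.7% to 56.3% in the colonies, with a median of 27.8%. The share was highest in colonies 6, 8 and 3, at 56.3%, 49.4% and 45.0%.

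Dnmt3l was listed at 19.6 and 3.61 FPKM in the fibroblasts, at 0.0714 and 0.151 in colonies 2 and 5, and at 0 in the other 6 colonies. The groups did not overlap, and the fibroblast libraries themselves were far apart. On the log2 scale the difference was -3.19 ± 0.33 (SE). Dnmt3l reached the filter only through the 2 fibroblast libraries, so a difference was fixed by the filter, no p is given, and it could not be tested without either of them.

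Of the dioxygenases, Tet3 was at 3.16 and 4.45 FPKM in the fibroblasts and at 5.80, 11.9 and 19.7 (lowest, median and highest) in the colonies. The groups did not overlap, with colonies 6 and 2 the highest and colony 8 the lowest. The means were 12.7 ± 5.21 (SD, n = 8) and 3.80 ± 0.909 (SD, n = 2), a 3.34-fold ratio, with a log2 difference of 1.48 ± 0.35 (SE) and a limma adjusted p of 0.00352. Without fibroblast library 1 the difference was 1.00 (adjusted p = 0.110), and within flow cell HJMKLALXX 1.00 (adjusted p = 0.247).

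Tet1 and Tet2 overlapped between the groups. Tet1 was at 0.844 and 0.960 FPKM in the fibroblasts and at 0.916, 1.31 and 3.48 (lowest, median and highest) in the colonies, a log2 difference of 0.51 (95% interval -0.18 to 1.20; limma adjusted p = 0.215). Tet2 was at 5.92 and 1.90 in the fibroblasts and at 0.751, 1.63 and 6.13 in the colonies, a log2 difference of -0.54 (95% interval -1.23 to 0.14; adjusted p = 0.185). The fibroblast libraries were far apart in Tet2, and colony 2 was above both. Tet3 formed 31.8% and 60.9% of the summed FPKM of the 3 Tet genes in the fibroblasts and 66.9% to 85.5% in the colonies, so it was the most abundant Tet per length in every colony, whereas in the first fibroblast library Tet2 was, with 59.7%.

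**Figure D1:**
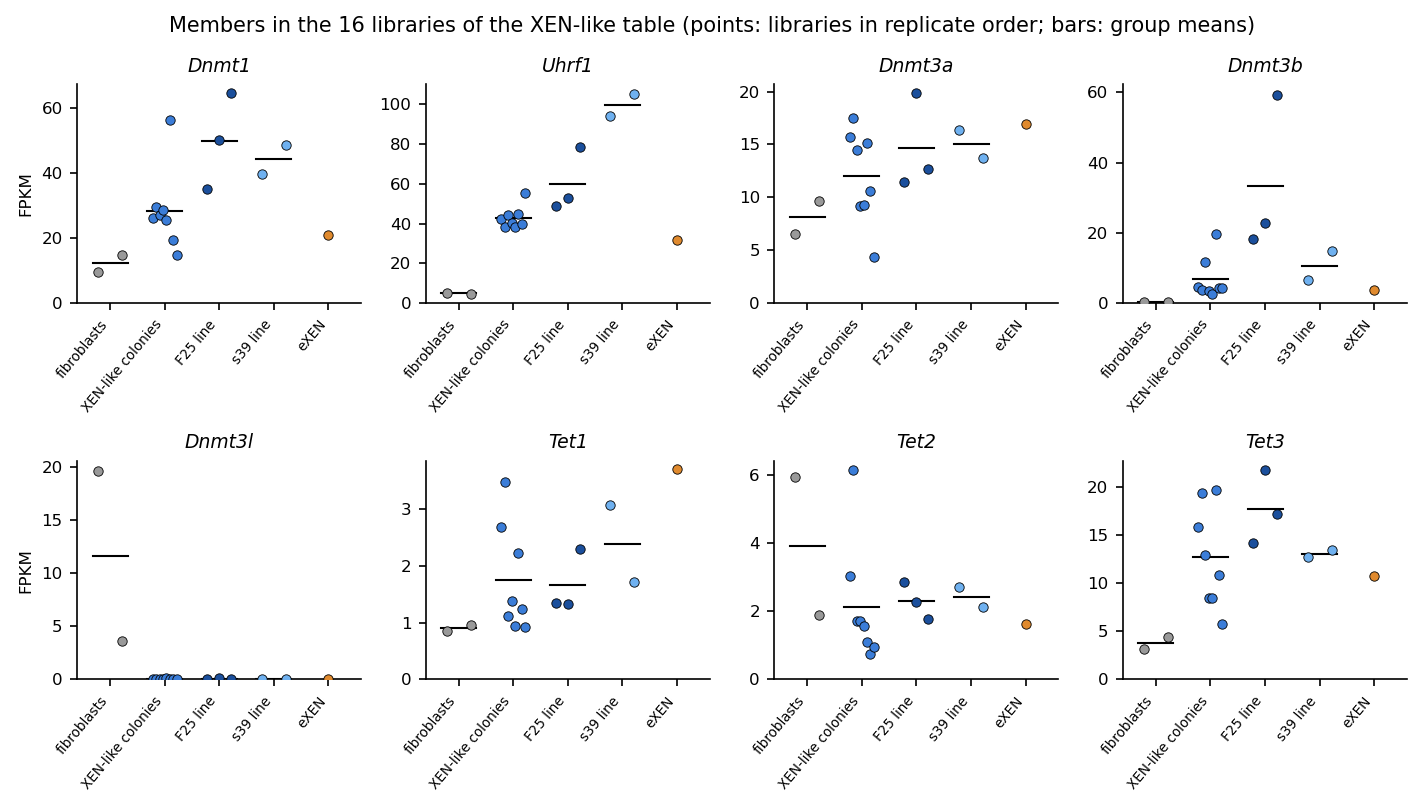
FPKM of the 8 enzymes in each library of the XEN table, with points for libraries in replicate order and bars for group means (2 fibroblast libraries, 8 colonies, 3 of line F25, 2 of line s39 and 1 of eXEN). All XEN-like libraries lie above the fibroblasts for Uhrf1, Dnmt3b and Tet3, and Dnmt3l is at 0.151 FPKM or less outside the fibroblasts.

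The plot of FPKM by library shows how the colonies differed among themselves. Colony 6 held the highest Dnmt1, Dnmt3b and Tet3, and colony 8 the lowest Dnmt1, Dnmt3a, Tet1 and Tet3 with the highest Uhrf1. Colony 8 was also the library with the widest gap between long and short transcripts in its table (-1.79), and Uhrf1 has 4259 exon bases against 16642 for Dnmt3a, 15457 for Tet1 and 16695 for Tet3. The part of transcript length in these differences was not tested beyond the length-trend correction. Under it Uhrf1 and Tet3 were still called and Dnmt1 had a log2 difference of 0.97. Dnmt3b was called there too, with the limit from the filter given above.

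The lines F25 and s39 were compared with the same 2 fibroblast libraries, in the same model, so this comparison is not independent of the one on colonies. The n of 5 given for the lines counts passages of F25 and s39, which are not independent lines. SEs and p-values of the line contrasts thus do not measure the spread between lines. Dnmt1, Uhrf1 and Tet3 rose in the lines, 3 of the 5 enzymes that reached 1 FPKM on both sides, where 33.8% of all genes were called in either direction. Dnmt3b was high and Dnmt3l near 0 in the lines, with the limit from the filter given above. The lines lay above the fibroblasts without overlap for 6 of the 8 enzymes, against 29.2% of all genes, and below them for 1, against 19.4%. The 6 include Dnmt3b and Tet1, which entered only through XEN-like libraries, and the 1 is Dnmt3l. These counts are therefore a description. The median log2 difference was 1.06 over the enzymes and 0.19 over all genes. Of the called genes 56.4% were higher, a share that was 41.9% with median-ratio scaling and 45.3% with the length-trend correction.

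Dnmt1 was at 35.1, 50.1 and 64.4 FPKM in F25 at passages 5, 8 and 13 and at 39.7 and 48.5 in s39 at passages 17 and 3. Every line library was above both fibroblast libraries. The mean was 47.6 ± 11.3 (SD, n = 5), with a log2 difference of 1.90 ± 0.42 (SE; limma adjusted p = 0.00230), although without fibroblast library 1 it was 1.51 (adjusted p = 0.0853).

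Uhrf1 was at 49.0, 53.0 and 78.3 FPKM in F25, in the same passage order, and at 94.3 and 105 in s39. The s39 libraries lay above all of F25, and all lay above the fibroblasts. The mean was 76.0 ± 24.7 (SD, n = 5), with a log2 difference of 3.75 ± 0.24 (SE; limma adjusted p = 3.29e-08). Uhrf1 over Dnmt1 was 1.39, 1.06 and 1.22 in F25 and 2.37 and 2.17 in s39.

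Dnmt3b was at 18.2, 22.7 and 59.3 FPKM in F25 and at 6.46 and 14.7 in s39. It was highest at the last passage of F25 and, in s39, at the earlier passage, and no line library approached the fibroblasts. The log2 difference was 3.83 ± 0.68 (SE; limma adjusted p = 0.00165 with no filter), with a mean of 24.3 ± 20.5 FPKM (SD, n = 5). In F25 it made up 61.6%, 53.3% and 82.4% of the de novo pair, and in s39 28.2% and 51.7%. Dnmt3a was at 11.4, 19.9 and 12.7 in F25 and 16.4 and 13.7 in s39, above the fibroblasts without overlap but with a log2 difference of 0.56 (95% interval -0.32 to 1.45). Within the HVN flow cells alone it was 1.05 (limma adjusted p = 0.0233), a call. Dnmt3l was listed at 0, 0.138 and 0.0670 in F25 and at 0 in both libraries of s39 (log2 difference -3.46), with the same limit from the filter.

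Tet3 was at 14.2, 21.8 and 17.2 FPKM in F25 and at 12.7 and 13.5 in s39. All line libraries lay above the fibroblasts, and the log2 difference was 1.55 ± 0.40 (SE; limma adjusted p = 0.00690), or 0.93 (adjusted p = 0.235) without fibroblast library 1. Tet1 was at 1.34, 1.33 and 2.30 in F25 and 3.07 and 1.71 in s39 (log2 difference 0.44, adjusted p = 0.363). Tet2 was at 2.84, 2.26 and 1.78 in F25 and 2.71 and 2.12 in s39, between the fibroblast libraries or below both, with a log2 difference of -0.94 (95% interval -1.72 to -0.16; adjusted p = 0.0533). It was called lower with median-ratio scaling (-1.20, adjusted p = 0.0171) and with the length-trend correction (-1.12, adjusted p = 0.0202).

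Between the lines and the colonies limma called 0.0856% of genes, 12 in all, and 0 of the 8 enzymes, although 1920 genes had an unadjusted p under 0.05. Dnmt1, Uhrf1 and Dnmt3b were among these 1920, and the ranges of all 8 enzymes overlapped. The log2 differences were 0.81 (95% interval 0.11 to 1.51) for Dnmt1, 0.84 (0.44 to 1.23) for Uhrf1 and 1.40 (0.27 to 2.53) for Dnmt3b, with limma adjusted p-values of 0.302, 0.121 and 0.289. For Dnmt3a and Tet3 they were 0.06 (-0.63 to 0.74) and 0.07 (-0.60 to 0.74). The median was 0.06 over the enzymes and 0.09 over all genes.

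The single eXEN library was at 20.8 FPKM for Dnmt1, 31.5 for Uhrf1, 16.9 for Dnmt3a, 3.79 for Dnmt3b, 0 for Dnmt3l, 3.70 for Tet1, 1.62 for Tet2 and 10.8 for Tet3. Uhrf1 was below all colonies and lines, Tet1 above all of them, and the other values lay within their range. With 1 library no test was made.

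**Figure D2:**
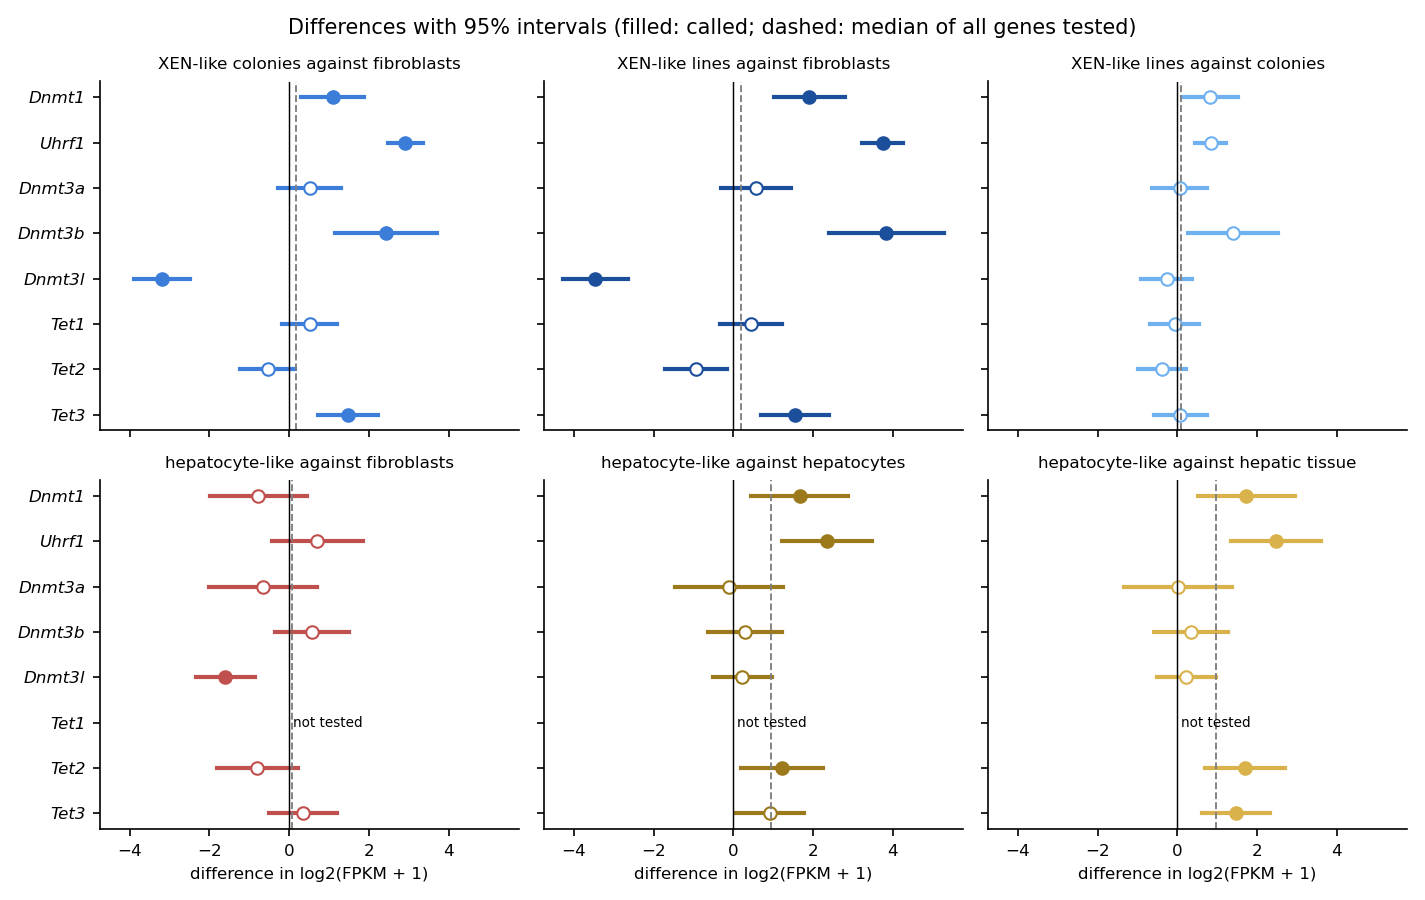
Log2 difference, on log2(FPKM + 1), of the 8 enzymes in 6 comparisons from limma, with 95% intervals. Filled points are called, dashed lines mark the median of all genes (0.94 for hepatocyte-like cells against hepatocytes and 0.96 against tissue), and Tet1 was not tested in the hepatic table.

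The genes that act with these enzymes were counted as lists, chosen with earlier results of these data known. Of 10 partners of the methylation machinery 9 were tested in colonies against fibroblasts, 6 rose and none fell, with a median log2 difference of 2.06. Of all genes 17.8% were called higher and 16.8% lower in that contrast. Cdca7, which works with the remodeller Hells, was at 31.7 FPKM against 2.44 (log2 difference 3.21, limma adjusted p = 3.41e-08). Lig1, the ligase of replicating DNA and a docking site for Uhrf1, was at 66.6 against 6.54 (3.01, adjusted p = 1.03e-05), and the sliding clamp Pcna at 164 against 37.5 (2.20, adjusted p = 1.30e-05). Usp7, Zfp57 and Uhrf2 did not pass. In the lines 6 of 9 also rose (median 2.35), where 33.8% of all genes were called in either direction, 56.4% of these calls being higher.

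Of 14 genes of base excision and other demethylation routes, 13 were tested, 5 rose and 2 fell (median 0.91). The shares over all genes were 17.8% higher and 16.8% lower, so the count that fell stood near the background. The uracil glycosylase Ung was at 28.9 FPKM against 3.82 (log2 difference 2.60, limma adjusted p = 6.89e-06) and the endonuclease Apex1 at 114 against 28.6 (1.95, adjusted p = 7.51e-05). The stress-response genes Gadd45g and Gadd45b were the 2 that fell, from 203 to 38.9 (-2.48, adjusted p = 0.0124) and from 57.1 to 17.1 (-2.08, adjusted p = 0.0221). Tdg, the glycosylase that removes the products of Tet oxidation, was looked up after its values were seen and was at 39.3 against 14.6 (1.46, adjusted p = 0.0275) with overlapping groups.

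None of 8 methyl-CpG binding proteins was called in the colonies by limma (median log2 difference -0.08), and 2 of them, Mbd2 and Zbtb4, had an unadjusted p under 0.05. Among all genes limma called 34.6% in the colonies and 33.8% in the lines, in either direction. In the lines 1 of the 8, Zbtb4, fell, to 11.9 FPKM from 37.0 (-1.97, limma adjusted p = 0.0276). Of 8 cofactors and partners of the Tet enzymes, 7 were tested and 2 rose, the arginine methyltransferase Prmt5 (42.5 against 14.4, log2 difference 1.50) and Idh2, which makes the Tet substrate 2-oxoglutarate in mitochondria (169 against 75.1, 1.14). Of 14 genes of methyl donor metabolism, 11 were tested and 5 rose (median 0.66), among them Shmt1 and Mthfd1 of the folate cycle, at 26.9 against 1.68 (3.32) and 48.5 against 6.16 (2.91). The share of all genes called higher in the colonies, 17.8%, stands beside the counts of both the Tet cofactor and the methyl donor list. Lines against colonies gave 0 limma calls in the excision, Tet cofactor, methyl donor and partner lists, with 1 excision gene, 1 Tet cofactor, 3 methyl donor genes and no partner at an unadjusted p under 0.05.

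DNA replication genes moved with the maintenance genes. Of 11 tested, 10 rose in the colonies (median log2 difference 2.53) and 11 in the lines (2.91), among them the helicase subunits Mcm5 and Mcm3 and the cyclin gene Ccna2, at log2 differences of 3.45, 3.11 and 3.43 in the colonies. Among all genes 17.8% were called higher in the colonies, and 33.8% in either direction in the lines, where 56.4% of the calls were higher. The summed levels below are of the replication genes. They were 126 and 119 FPKM in the fibroblasts and 471 to 933 in the colonies, with colony 6 the highest, 555 to 1122 in F25, 802 and 974 in s39, and 399 in eXEN. Which part of the rise of Dnmt1 and Uhrf1 goes with the level of replicating cells was not tested. Among the genes at a mean of 5 FPKM or more, those most like Uhrf1 over the 16 libraries were Plk1 (r = 0.980), Poc1a (0.980) and Cdc6 (0.974), and those most like Dnmt1 were Smarcc1 (0.954), Clcn5 (0.935) and Nsd2 (0.933). Such correlations describe libraries that share depth, table and group structure.

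**Figure D3:**
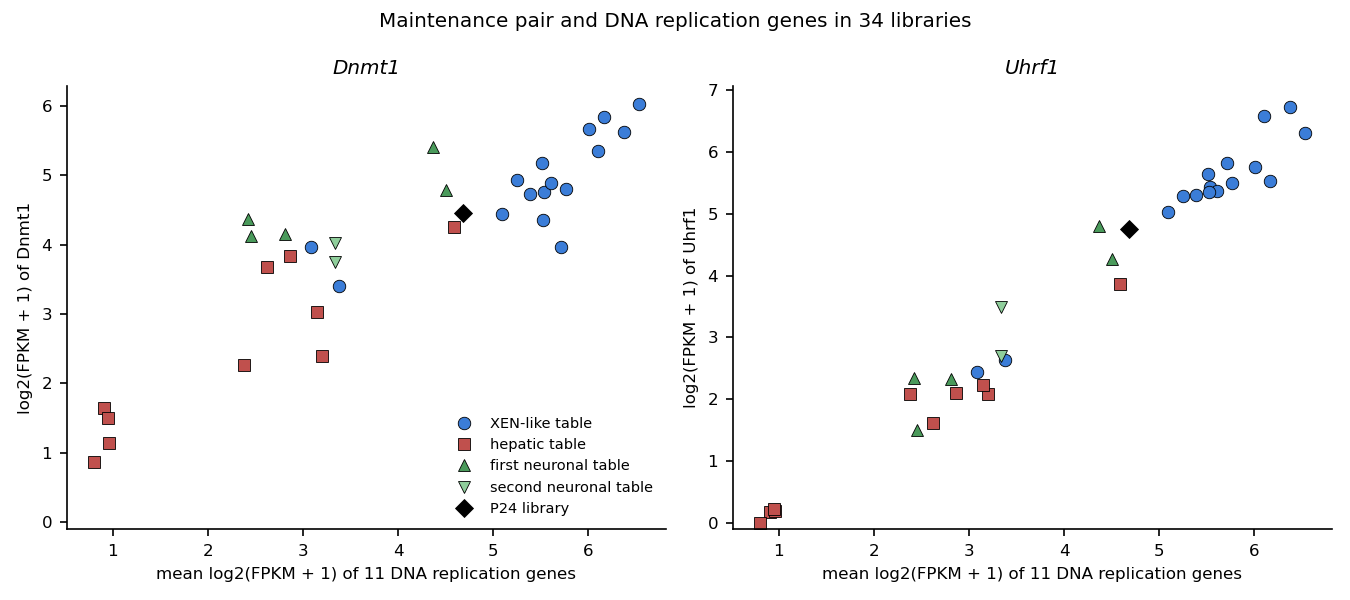
Level of Dnmt1 and of Uhrf1 against the mean level of 11 DNA replication genes, both as log2(FPKM + 1), with 1 point for each of the 34 libraries and a symbol for each table. Within their own tables, adult liver, with low replication genes, lies toward the lower left and XEN-like libraries toward the upper right. The tables were normalized separately, so positions can be compared within a symbol and not between symbols.

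The other enzymes had other neighbours in the XEN table. Dnmt3b was most like Uchl5 (r = 0.966), Asna1 (0.950) and Nop2 (0.947), and Tet3 most like Ptpn13 (0.951), Zc3h4 (0.941) and Bcor (0.932). Dnmt3l was most like Ifi204 (0.996), Serpinb2 (0.993) and Ifi202b (0.981), which were also high in the fibroblasts. Dnmt3a (Klhl11 and Pds5a at 0.896, Rad54l2 at 0.886), Tet1 (Wipf2, 0.830; Phf3, 0.825; Dip2b, 0.821) and Tet2 (Atf7, 0.806; Dnajb2, 0.798; Rcor3, 0.793) had none as close. Among the enzymes themselves Dnmt1 correlated with Dnmt3b at 0.884 and with Tet3 at 0.855, and Tet2 with Tet3 at -0.032.

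Hepatocyte-like cells made from XEN-like cells were compared with fibroblasts, the starting cells, and with hepatocytes and hepatic tissue, the target. Against fibroblasts no enzyme passed the test but Dnmt3l, which was lower and entered it through the fibroblasts alone. Of all 15657 genes tested, 26.3% were called and 15.0% were called lower. The median log2 difference was -0.65 over the 7 enzymes tested and 0.08 over all genes, and Tet1 stayed under the filter. Dnmt3l was listed at 1.68 and 3.63 FPKM in the fibroblasts and at 0, 0, 0.844 and 0 in the 4 hepatocyte-like libraries, below the fibroblasts without overlap, as for 24.1% of all genes. The log2 difference was -1.60 ± 0.33 (SE), again fixed in direction by the filter, so no p is given. Within flow cell HH2TTALXX it was -1.38 and was not called.

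The 4 hepatocyte-like libraries differed from each other in the maintenance genes. Dnmt1 was at 4.26, 3.82, 18.1 and 7.20 FPKM against 11.8 and 13.3 in fibroblasts, with the third library above and the others below the fibroblasts. The log2 difference was -0.77 (95% interval -1.99 to 0.44; limma adjusted p = 0.324), and without the third library it was -1.19 (adjusted p = 0.0452), a call. Uhrf1 was at 3.22, 3.22, 13.6 and 3.69 against 2.07 and 3.27, with the third and, by little, the last library above both fibroblast libraries and the others within their range (0.71, -0.42 to 1.84; adjusted p = 0.334). That library also had the highest summed replication genes, 282 FPKM against 112, 88.1 and 99.9 in the other hepatocyte-like libraries and 78.6 and 81.7 in fibroblasts. It had the lowest summed hepatocyte markers, 1814 FPKM against 10016, 9777 and 3944. The part of these in the Dnmt1 and Uhrf1 levels was not tested.

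Dnmt3a ranged from 1.90 to 16.5 FPKM in the hepatocyte-like libraries around 8.95 and 12.8 in fibroblasts (log2 difference -0.65 ± 0.60, SE; limma adjusted p = 0.468). Dnmt3b was at 0.313, 0.582, 2.06 and 2.16 against 0.446 and 0.404, high in hepatocyte-like libraries 3 and 4, which were run on the flow cell of the fibroblasts (0.57, -0.35 to 1.50). Within that flow cell alone its difference was 1.13. There Dnmt3b reached the filter only through the hepatocyte-like libraries, so its direction was fixed and no p is given. Tet2 was at 3.34, 1.32, 3.41 and 7.04 against 6.19 and 7.01 (-0.80, -1.82 to 0.21), and Tet3 at 2.92, 7.04, 7.75 and 7.62 against 4.26 and 4.77 (0.34, -0.51 to 1.19). Tet1 was at 0.219 or less against 0.278 and 0.302.

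Against hepatocytes, Uhrf1, Dnmt1 and Tet2 were higher in the hepatocyte-like cells by the call rule, 3 of 7 tested, and in that contrast 48.9% of all genes were called and 41.3% were higher. Without overlap these 3 of 7 were higher, against 51.8% of all genes. All genes together had a median log2 difference of 0.94, nearly that of the enzymes (0.92), so the count of enzymes stood near the background. With median-ratio scaling the median of all genes was 0.06 and with the length-trend correction -0.04, and the share of calls that were higher went from 84.6% to 51.1% and 48.6%. The hepatocytes and tissue shared a flow cell with no other group, so flow cell and group cannot be told apart.

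Uhrf1 was listed at 0.138 and 0.169 FPKM in hepatocytes and at 0.130 and 0 in tissue. All 4 hepatocyte-like libraries lay above these. Uhrf1 differed by a log2 value of 2.36 ± 0.50 (SE; limma adjusted p = 0.00383) against hepatocytes and 2.48 ± 0.50 (adjusted p = 0.00288) against tissue. With the scalings it was 1.77 (median-ratio, adjusted p = 0.0172) and 1.29 (length-trend, adjusted p = 0.0584) against hepatocytes, and 1.96 (adjusted p = 0.0105) and 1.40 (adjusted p = 0.0431) against tissue. Uhrf1 was under 1 FPKM in all adult liver libraries, and with no filter it was still called in both contrasts (adjusted p = 0.0126 and 0.00982). It was the only enzyme still called with median-ratio scaling in either contrast.

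Dnmt1 was at 1.21 and 1.82 FPKM in hepatocytes and 2.14 and 0.831 in tissue, below every hepatocyte-like library. In log2 terms Dnmt1 differed by 1.67 ± 0.54 (SE; limma adjusted p = 0.0271) against hepatocytes, but 0.70 (adjusted p = 0.328) with median-ratio scaling and 0.72 (adjusted p = 0.265) with the length-trend correction. Without hepatocytes 1 the adjusted p was 0.150, without hepatocytes 2 it was 0.0749 and with no filter 0.0592. Against tissue it was 1.73 ± 0.54 (adjusted p = 0.0231), and 0.74 or 0.65 with the 2 corrections (adjusted p = 0.291 and 0.319). That call was also lost without tissue 2 (1.34, adjusted p = 0.173) and with no filter (adjusted p = 0.0514).

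Tet2 was at 0.685 and 1.07 FPKM in hepatocytes and 0.606 and 0.122 in tissue, and all hepatocyte-like libraries were above. Tet2 thus differed by a log2 value of 1.22 ± 0.45 (SE; limma adjusted p = 0.0466) against hepatocytes and 1.70 ± 0.45 (adjusted p = 0.0113) against tissue. The first call was lost without either hepatocyte library (1.07, adjusted p = 0.212; 1.37, adjusted p = 0.108), and both were lost with either scaling, at 0.42 and 0.44 against hepatocytes and 1.07 and 0.60 against tissue (adjusted p = 0.490, 0.397, 0.0862 and 0.249). The call against hepatocytes was lost as well without hepatocyte-like library 1, 3 or 4 (adjusted p = 0.0717, 0.0739 and 0.0678), with no filter (0.103) and with a pseudocount of 0.1 (0.0556), and that against tissue without tissue 2 (1.44, adjusted p = 0.0986).

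Against tissue 4 of 7 enzymes tested were higher by the call rule, where 50.2% of all genes were called and 42.3% were higher, and the same 4 lay above tissue without overlap, against 52.2% of all genes. Beside Uhrf1, Dnmt1 and Tet2 this was Tet3, at 2.41 and 2.99 FPKM in hepatocytes and 1.25 and 1.82 in tissue. It differed by 1.47 ± 0.38 (SE; limma adjusted p = 0.00964) from tissue, by 0.45 and 0.37 with the scalings (adjusted p = 0.376 and 0.437), by 1.31 without tissue 1 (adjusted p = 0.0729), and by 0.92 (adjusted p = 0.0672) from hepatocytes, where the groups overlapped. The enzymes' median against tissue was 1.47, beside 0.96 for all genes. The contrasts share the 4 hepatocyte-like libraries.

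Dnmt3a was the most abundant of the 8 enzymes per length in adult liver. It was at 8.05 and 6.29 FPKM in hepatocytes and 5.38 and 7.53 in tissue, within the wide range of the hepatocyte-like cells. The log2 difference was -0.12 (limma adjusted p = 0.888) against hepatocytes and 0.02 (95% interval -1.33 to 1.38; adjusted p = 0.982) against tissue, the latter an interval that leaves room for more than a 2-fold difference either way. Dnmt3b was at 0.969 and 0.509 in hepatocytes and 0.352 and 1.07 in tissue, and Dnmt3l was listed at 0 in all 4 libraries. Tet1 was at 0.332 and 0.0843 in hepatocytes and listed at 0 in tissue.

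Between hepatocytes and tissue limma called 0.00639% of genes, 1 gene, and 0 enzymes, and 334 genes but no enzyme had an unadjusted p under 0.05. Uhrf1, Tet2 and Tet3 were higher in hepatocytes without overlap, as were 13.6% of all genes, by log2 differences of 0.12, 0.48 and 0.55. The likeness of each hepatocyte library to a tissue library bears on this contrast, and its part was not tested.

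**Figure D4:**
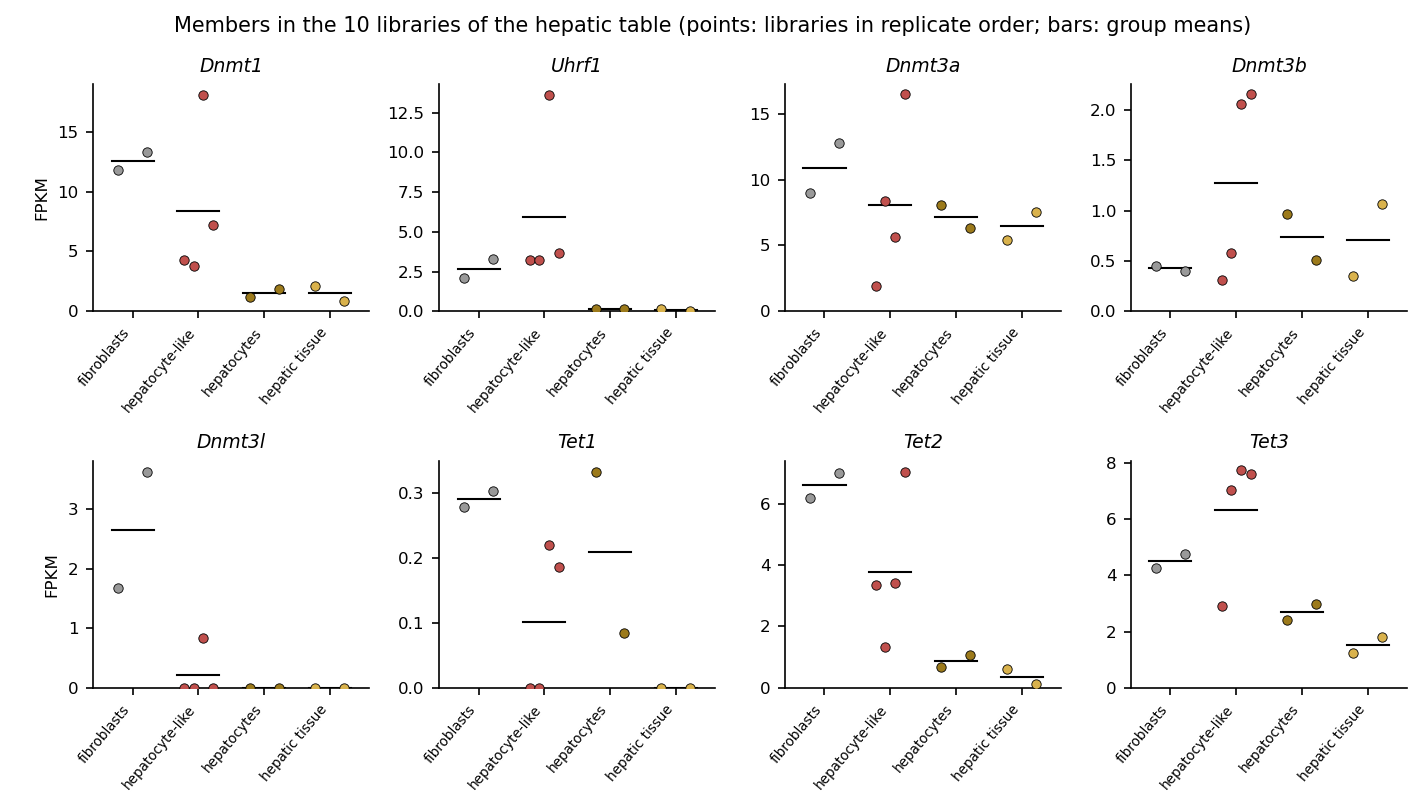
FPKM of the 8 enzymes in each of the 10 libraries of the hepatic table, with points for libraries in replicate order and bars for group means (2 fibroblast libraries, 4 of hepatocyte-like cells, 2 of hepatocytes and 2 of hepatic tissue). The third hepatocyte-like library has the highest Dnmt1 (18.1 FPKM) and Uhrf1 (13.6), and Dnmt3a stays between 5.38 and 8.05 in adult liver.

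The plot of the hepatic table also gives the proportion of the maintenance pair. Uhrf1 over Dnmt1 was 0.756, 0.842, 0.755 and 0.512 in the hepatocyte-like cells, 0.175 and 0.245 in fibroblasts, 0.114 and 0.0931 in hepatocytes and 0.0605 and 0 in tissue. Within this table the hepatocyte-like cells lay above every other group in this ratio, which does not depend on the scaling of a library. The fibroblasts of the first neuronal table had a ratio of 0.680, inside the range of the hepatocyte-like cells. Dnmt3b made up 14.2%, 6.51%, 26.7% and 11.6% of the de novo pair in them, 4.74% and 3.05% in fibroblasts and 6.14% to 12.4% in adult liver. Tet2 was the most abundant Tet in both fibroblast libraries of this table, with 57.7% and 58.0% of the summed Tet level, and in hepatocyte-like library 1, with 53.4%. Among fibroblasts of the other tables, Tet2 led in XEN-table library 1 (59.7%). Tet3 led in XEN-table library 2 (60.9%) and in the first neuronal table (79.9%).

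Of the accompanying genes, the replication list had 0 of 11 called between hepatocyte-like cells and fibroblasts (median log2 difference 0.67) and the 9 partners also 0 (0.32), by limma, with 1 and 2 genes at an unadjusted p under 0.05. Against fibroblasts 26.3% of all genes were called. Against hepatocytes 10 of 11 replication genes and 6 of 9 partners were higher, and against tissue 9 and 8. Among all genes 41.3% and 42.3% were called higher in the contrasts with hepatocytes and tissue, with median log2 differences of 0.94 and 0.96. With median-ratio scaling and the length-trend correction the replication counts were 5 and 4 in both of these contrasts, the partners 3 and 3 against hepatocytes and 2 and 3 against tissue. Ogt, which modifies proteins with a sugar and binds the Tet enzymes, fell by 1.93 on the log2 scale against fibroblasts (limma adjusted p = 0.00525), and Zbtb4 fell by 1.59 (adjusted p = 0.0153). In the hepatic table Uhrf1 was most like Tacc3 (r = 0.993 over 10 libraries) and Aurka (0.992), Dnmt1 like Actb (0.981), Fut11 (0.977) and Mical2 (0.976), Tet2 like Exoc2 (0.984), Sh3bp1 (0.976) and Chd8 (0.974), and Tet3 like Kmt5b (0.957), Ogfod1 (0.955) and Itsn2 (0.945).

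In the first neuronal table each group had 1 library, so values are given with no test and a log2 difference past 1 is counted among genes at 1 FPKM or more in either library. TauEGFP colonies 1 had more Dnmt3a and more of each Tet than the fibroblasts, and less Uhrf1. These 4 of 7 enzymes counted were past 1 upward, against 25.2% of all genes, and 1 downward, against 8.56%. Of the 4, Tet1 and Tet2 reached 1 FPKM only in TauEGFP colonies 1, so their direction was fixed by the filter. Dnmt3a was at 18.9 FPKM against 8.92 (log2 difference 1.01), Tet1 at 1.72 against 0.122 (1.28), Tet2 at 2.95 against 0.656 (1.25) and Tet3 at 9.21 against 3.10 (1.32). Uhrf1 was at 4.02 against 18.2 (-1.93), with Dnmt1 at 16.8 against 26.7 (-0.64) and Dnmt3l at 2.39 against 5.71 (-0.99). The enzymes' median was 1.01 beside 0.31 for all genes.

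The neuronal cells labelled as induced by FICB had 1 of 6 enzymes counted past 1 upward against fibroblasts (15.6% of all genes) and 1 downward (11.4%). Tet2 was at 2.54 FPKM (log2 difference 1.10) and Uhrf1 at 1.82 (-2.76), while Dnmt3a was at 6.48 (-0.41) and Tet3 at 2.94 (-0.06). Tet2 reached 1 FPKM only in the FICB cells, so its direction was fixed by the filter. Between TauEGFP colonies 1 and these cells Dnmt3a (1.42), Tet1 (1.11) and Tet3 (1.37) were past 1 upward, 3 of 7 counted against 17.2% of all genes. Tet1 entered that count only through the TauEGFP library. The contrasts share libraries, and the fibroblast library had a higher summed replication level, 301 FPKM, than TauEGFP colonies 1 (76.7) or FICB cells (64.0).

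Against primary neurons 1, TauEGFP colonies 1 had lower maintenance genes, with Dnmt1 at 16.8 FPKM against 41.6 (log2 difference -1.26) and Uhrf1 at 4.02 against 26.9 (-2.47), 2 of 8 counted against 14.5% of all genes. Dnmt3l, at 2.39 and listed at 0 in the neurons, was counted upward, against 24.7% of all genes. It entered the count only through the TauEGFP library, so its direction was fixed by the filter. Dnmt3a was 18.9 in both, Tet1 1.72 against 4.19 (-0.93) and Tet3 9.21 against 16.1 (-0.74). Primary neurons 1 also had summed replication genes of 294 FPKM. Against brain only Dnmt3l was past 1 upward (1.61; 23.7% of all genes), with 25.8 FPKM for Dnmt3a in brain, the highest in any of the 5 libraries. Dnmt3l was at 0.108 FPKM in brain and entered that count, too, only through the TauEGFP library.

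With both neuronal tables, each holding 1 library of a group, TauEGFP colonies and primary neurons were fitted with the table as a block, which left 1 residual degree of freedom. Limma called 0% of 13625 genes and 0 of 6 enzymes tested, and 750 genes but no enzyme had an unadjusted p under 0.05. Uhrf1 was at 4.02 and 5.46 FPKM in the colonies and 26.9 and 10.3 in the neurons, lower without overlap as for 13.7% of all genes (log2 difference -1.64, 95% interval -3.72 to 0.43; limma adjusted p = 0.996). Dnmt1 was at 16.8 and 15.3 against 41.6 and 12.4 (-0.49, -2.33 to 1.35), and Dnmt3a at 18.9 and 18.7 against 18.9 and 13.2 (0.24, -1.42 to 1.90). For Dnmt1 the 2 neuron libraries lay on opposite sides of the colonies. The second of them is the one with high astrocyte and macrophage markers, whose part was not tested. The enzymes' median was -0.29 beside 0.13 for all genes.

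**Figure D5:**
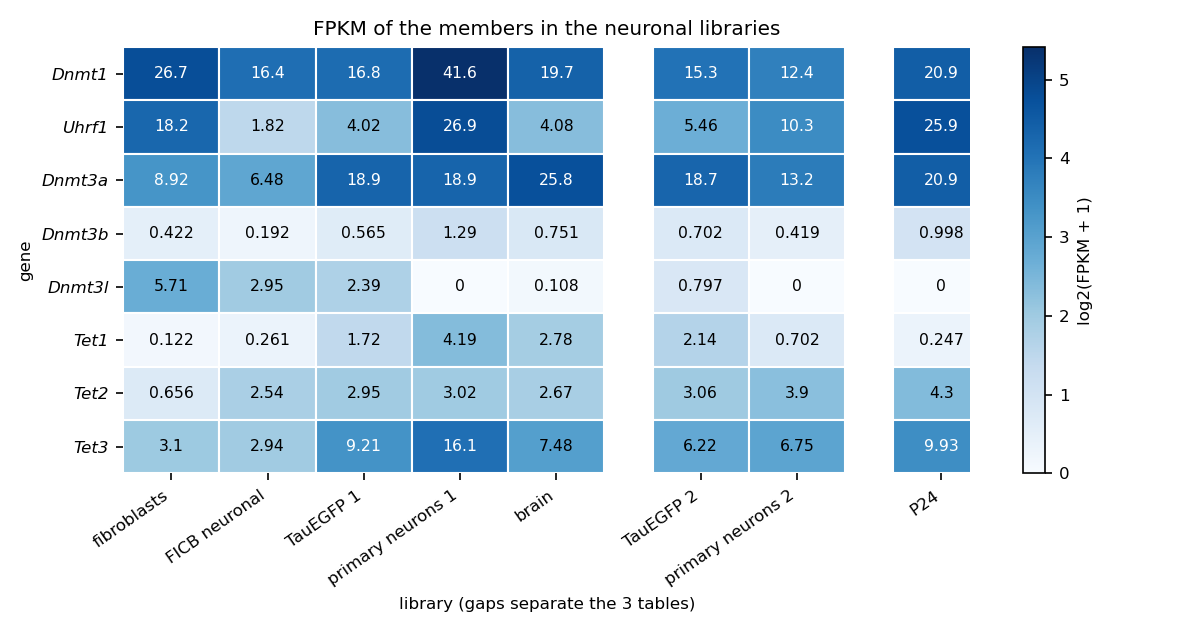
FPKM of the 8 enzymes in the 8 libraries of the neuronal tables, 1 column a library, with the value printed in each cell and gaps between the 3 tables. In the first neuronal table Dnmt3a is at 18.9 to 25.8 FPKM in TauEGFP colonies 1, primary neurons 1 and brain against 6.48 in FICB cells and 8.92 in fibroblasts. In the second it is at 18.7 in TauEGFP colonies 2 and 13.2 in primary neurons 2. Dnmt3b is at 1.29 or less throughout.

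The heat map of neuronal libraries shows Dnmt3a dominating the de novo pair, with Dnmt3b at 2.83% to 6.40% of it. In the passage 24 library, alone in its table, Uhrf1 was at 25.9 FPKM, Dnmt1 at 20.9, Dnmt3a at 20.9, Tet3 at 9.93, Tet2 at 4.30, Dnmt3b at 0.998, Tet1 at 0.247 and Dnmt3l at 0. Uhrf1 exceeded 70.2% of the 13503 genes at 1 FPKM or more in it, Dnmt3a 64.8%, Dnmt1 64.7%, Tet3 44.3% and Tet2 24.1%. Uhrf1 over Dnmt1 was 1.24 there. The ratio was 0.111 in FICB cells, 0.239 and 0.357 in TauEGFP colonies, 0.207 in brain and 0.645 and 0.834 in primary neurons. In the fibroblasts of the first neuronal table it was 0.680. These levels across tables were normalized separately and are given side by side with no test.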

How the data were processed

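Per the labels' protocols, poly-A RNA was made into NEBNext Ultra libraries. The submitters' processing notes name TopHat2 and mm10, and the counting tool and annotation are not given in the sources used here. The values the authors deposited are FPKM. A column header gives this unit in 1 table, and in the other 4 it was inferred from fractional values with unequal sums. Repeated identifiers (118, 99 and 118 rows in the hepatic, first neuronal and passage 24 tables) and 1 incomplete row were left out, which gave 20458, 48278, 43397, 34932 and 48278 genes in the XEN, hepatic, neuronal and passage 24 tables. GENCODE vM21 on mm10 matched 97.3% to 99.5% of identifiers.

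Levels were transformed to log2(FPKM + 1), with a pseudocount of 1. Genes at 1 FPKM in at least 2 libraries of a model, whichever groups these were, entered limma 3.58.1 under R 4.3.3 (moderated, trended variance, two-sided tests). The XEN model had a flow cell term (HJMKLALXX against the HVN codes in the titles) and 10 residual degrees of freedom, and the level of the lines was the mean of both line means. The hepatic model had no covariate and 6 residual degrees of freedom. Calls required an adjusted p (Benjamini-Hochberg, all genes tested) under 0.05 and a log2 difference of 1 or more, up or down. No label says that libraries of a group are separate cultures or animals, so p-values reflect library-to-library spread that may be technical. Colonies are numbered as in the second of 2 numberings in their labels.

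The 8 enzymes and the lists were chosen with earlier results of these data known. The enzymes are always named, list members where called (up to 4 per list and comparison, largest differences first) or uncalled, and the 3 most correlated genes at a mean of 5 FPKM or more per enzyme. A few genes are not reported here. Alternatives were a pseudocount of 0.1, no filter, median-ratio scaling, a replicate block, no flow cell term, single flow cells, leaving out each library and, added after seeing the data, a length-trend correction, which subtracts from each library a lowess curve of its deviations on exon length. The models were tested on simulated data. Depth is an estimate only, so no counting interval or floor was computed.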

Additional observations from a re-analysis of the deposited data

Results flagged for a closer look

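Among 16 sets of values (an enzyme in a group of 4 to 10 libraries), 4 held a library far from the rest by Dixon's gap-to-range ratio on log2(FPKM + 1) at the 95% level, where chance gives about 1 in 20. In the colonies, Uhrf1 was at 55.3 FPKM in colony 8, with a ratio of 0.56 against a critical value of 0.526. In the 4 hepatocyte-like libraries the third stood apart with Uhrf1 at 13.6 FPKM (0.92 against 0.829). Dnmt3l was at 0.844 FPKM in that library and listed at 0 in the others. With the others at 0 the ratio is 1.00 for any value above 0, so this flag was fixed by the zeros and does not measure distance. The first hepatocyte-like library had the lowest Tet3, at 2.92 FPKM (0.89).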

How the results depend on the processing

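Of 693 values with a test that the enzymes had under alternatives, 602 kept their direction and side of the threshold, 39 lost a call, 7 gained one and 45 turned in direction, none of an enzyme called as reported. In TauEGFP colonies against primary neurons, leaving out a library left no test, and without either library numbered 1 Dnmt1 turned to 0.28 and Tet1 to 0.89. Uhrf1 in colonies and lines against fibroblasts was called under every alternative. Depth is estimated only, the fibroblasts of the XEN and hepatic tables are 2 libraries each, and flow cell and group cannot be told apart for adult liver.

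Within HVN flow cells, colonies against fibroblasts had 1517 genes lower and 0 enzymes lower, and lines against fibroblasts 0 enzymes lower. Lines against colonies there had 64 genes higher and 66 lower, with Dnmt3a at -0.11 and Tet3 at -0.07. Within HJMKLALXX, colonies against fibroblasts had 1290 genes higher and 1371 lower, 1 enzyme higher and 0 lower, and Dnmt3a at -0.08. Within HH2TTALXX, hepatocyte-like cells against fibroblasts had 1 enzyme higher and 0 lower. That enzyme was Dnmt3b, which entered the test only through the hepatocyte-like libraries. Without a flow cell term, lines against colonies had 26 genes higher and 9 lower, with Dnmt3l at 0.01, Tet1 at 0.17 and Tet2 at 0.25.

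With median-ratio scaling, 2 enzymes were lower in lines against fibroblasts, and in lines against colonies Dnmt3a was at -0.04 and Tet3 at -0.02. Hepatocyte-like cells against hepatocytes had 2380 genes higher and 2275 lower and 1 enzyme higher, with Dnmt3b at -0.33 and Tet3 at -0.14. Against tissue they had 2341 higher and 2574 lower and 1 enzyme higher, with Dnmt3a at -1.17 and Dnmt3b at -0.30. Hepatocytes against tissue had 3 genes higher and 2 lower. With the length-trend correction, added after seeing the data, 2 enzymes were lower in lines against fibroblasts, and in lines against colonies Dnmt3a was at -0.12 and Tet3 at -0.11. Hepatocyte-like cells had 2438 genes higher and 2576 lower and 0 enzymes higher against hepatocytes, with Dnmt3b at -0.73 and Dnmt3l at -0.86. Against tissue they had 2399 higher and 2708 lower and 1 enzyme higher, with Dnmt3a at -1.08, Dnmt3b at -0.74 and Dnmt3l at -0.78. Hepatocytes against tissue had 0 genes lower, with Dnmt1 at -0.08, Dnmt3a at -0.18 and Dnmt3b at -0.01. The cause of these changes was not tested.

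With no filter, 1 enzyme was higher in hepatocyte-like cells against hepatocytes, and hepatocytes against tissue had 3 genes higher and 2 lower. With a pseudocount of 0.1, hepatocytes against tissue had 0 genes lower, Dnmt3a was at -0.03 in hepatocyte-like cells against tissue, and Tet1 at 0.12 in TauEGFP colonies against primary neurons.

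Replicate numbers did not pair the libraries, with correlations of deviations between same-numbered fibroblasts and colonies of 0.27 and -0.20, and of -0.10 for TauEGFP colonies and primary neurons. With a replicate block, colonies against fibroblasts had 1380 genes higher and 1494 lower, with 3 enzymes higher and 1 lower and Tet2 at 0.26. With no replicate block, TauEGFP colonies against primary neurons had 0 genes called either way.

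Leaving out 1 library at a time, colonies against fibroblasts had 1373 to 2393 genes lower, 1 to 4 enzymes higher and 0 to 1 lower, and Dnmt3a reached from -0.08 to 1.16. Without fibroblast library 1 the enzymes higher were 1 in the colonies and 2 in the lines, and without colony 6 or fibroblast library 2 they were 3 in the colonies. Lines against fibroblasts had 1755 to 2848 genes higher, 2 to 4 enzymes higher and 0 to 1 lower, with Dnmt3a from -0.18 to 1.05. In every contrast with fibroblasts, Dnmt3l did not enter the test when either fibroblast library was left out. A count of 0 enzymes lower in those runs does not bear on Dnmt3l. Lines against colonies had 3 to 23 genes higher and 2 to 22 lower, with Dnmt3a from -0.06 to 0.18, Tet1 from -0.29 to 0.15 and Tet3 from -0.01 to 0.24. Hepatocyte-like cells against fibroblasts had 762 to 1980 genes higher, 766 to 2519 lower and 0 to 2 enzymes lower. Against hepatocytes they had 4304 to 6772 genes higher and 1 to 3 enzymes, with Dnmt3a from -0.52 to 0.34 and Dnmt3l from 0.00 to 0.29. Against tissue 2 to 4 enzymes were higher, with Dnmt3a from -0.39 to 0.48. Hepatocytes against tissue had 0 to 3 genes lower, with Dnmt1 from -0.33 to 0.45, Dnmt3a from -0.07 to 0.35 and Dnmt3b from -0.26 to 0.35.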

Other observations

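The methyl donor genes held large differences between hepatocyte-like cells and adult liver. Of 14 tested, 7 were lower and 5 higher than in hepatocytes (median log2 difference -0.83), and 7 lower and 6 higher than in tissue (-0.66). Of all genes 41.3% and 42.3% were called higher in these contrasts, with medians of 0.94 and 0.96, so the counts of higher genes stood near the background. Gnmt, a liver methyltransferase that consumes the methyl donor, averaged 1.19 ± 1.94 FPKM in the 4 hepatocyte-like libraries, 1687 ± 515 in the 2 of hepatocytes and 2341 ± 1165 in the 2 of tissue (SD), with log2 differences of -9.91 and -10.32. Bhmt, which makes methionine from betaine, was at 0.762 against 999 and 1097 FPKM (-9.15 and -9.26). In these contrasts Gnmt and Bhmt were high only in adult liver, which carried them through the filter. No p is given for them, and their place in the counts is a description. Mat1a, the liver enzyme of S-adenosylmethionine synthesis, was at 42.0 against 2283 and 2405 (-7.02 and -7.11, limma adjusted p = 0.00583 and 0.00530). Mthfd2, a mitochondrial folate enzyme of growing cells, was higher, at 39.4 against 0.547 and 0.703 (4.60 and 4.52, adjusted p = 2.41e-04 and 2.70e-04).

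Of 12 genes that promoter methylation keeps silent in mouse somatic cells, 2 passed the filter in the XEN table and 1 in the hepatic table, and Rhox5, a homeobox gene also active in extraembryonic tissue, was high in both. It entered the tests only through the XEN-like and hepatocyte-like libraries, so its values are a description. It was at 0 and 0.675 FPKM in XEN-table fibroblasts and at 17.7 to 1339.9 in the 8 colonies, lowest in colonies 2 and 6. It was at 219.9, 121 and 399 in F25, at 999 and 768 in s39 and at 761 in eXEN. The hepatocyte-like libraries had 560.0 to 812, against 0 in both fibroblast libraries of that table. The passage 24 library had 969, and the other neuronal libraries, TauEGFP colonies included, 2.48 or less.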
